A study of Ovis aries with 36 samples.

Results

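The 100 loci described here were those whose expression varied least across 9 skeletal muscles of 4 lambs. They were chosen from 36 samples by their spread, so each was picked because its level stayed nearly level from muscle to muscle and from lamb to lamb. Expression was taken as CPM, the reads of a locus scaled to 1000000 per sample over all reads of a sample that fell on loci with an Ensembl gene. Of 31136 loci, 24763 carried an Ensembl gene, and 1430 of these had a mean of at least 100 counts per sample and were eligible. The 100 eligible loci with the lowest standard deviation (SD) of log2(CPM + 1) over the 36 samples were kept.

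Genes with a steady level across tissues often serve the basic upkeep of a cell, such as transcription, splicing, protein turnover and transport, and they are commonly called housekeeping genes. A steady gene is the yardstick of quantitative PCR, where a target is expressed relative to it, and beta-actin had that role in the study. Skeletal muscles are mosaics of slow and fast fibres whose contractile and metabolic genes differ strongly. In bulk tissue, fewer cells of a type and less RNA per cell cannot be told apart, and a level shared by all muscles says nothing about single fibres.

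RNA was sequenced from 4 unrelated Poll Dorset cross-bred lambs that came from different flocks, had been fed soy crop and a sorghum grain supplement after weaning, and were slaughtered at 14 months with live weights of 67 to 72 kg. Each lamb gave all 9 muscles, sampled after slaughter from the middle of the superficial belly, and no lamb or muscle was treated. The muscles were AD (Adductor), GB (Gluteobiceps), GM (Gluteus medius), LL (Longissimus lumborum), PM (Psoas major), RF (Rectus femoris), SM (Semimembranosus), SS (Supraspinatus) and ST (Semitendinosus). The design has 4 biological replicates per muscle and compares muscles within lambs. Samples are named here by muscle and by the number in their label. That number was taken as the animal, which the labels do not state, so LL2 is read as LL of animal 2.

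Depth was 3699148 to 6427422 counts per sample (median 5905902), with the lowest total of each muscle in animal 1. Most counts, 65.7% to 78.3%, fell on 4 loci without an Ensembl gene, which left 905623 to 1878225 counts per sample on Ensembl loci. On this scale 3 counts are worth 1.60 to 3.31 CPM, and the 100 loci lay well above that, with no fewer than 52 counts in any sample. Several muscle genes named by the study could be placed by their published coordinates. TNNT1, the slow skeletal troponin T, was present in every sample, from 56.9 to 1145 CPM (median 460.1 CPM), and ATP2A2, the calcium pump of slow fibres, from 151 to 1999 CPM (median 777 CPM). The markers of other cell types were not analysed here, because the files hold no gene symbols.

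The deposited tables identify loci by Ensembl identifier only, so the 100 loci are named here by identifier and by position in the Oar_v3.1 assembly, and what their products do is not stated. The SD of the 100 loci ran from 0.136 to 0.212 log2 units, with a median of 0.19, whereas the median over all 1430 eligible loci was 0.32. The highest sample exceeded the lowest by 1.42-fold to 2.21-fold (median 1.78-fold). This ratio stayed under 2-fold in 93 of the 100 loci, against 9.32% of the other 1330. These values restate the choice and were not tested.

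**Figure D1:**
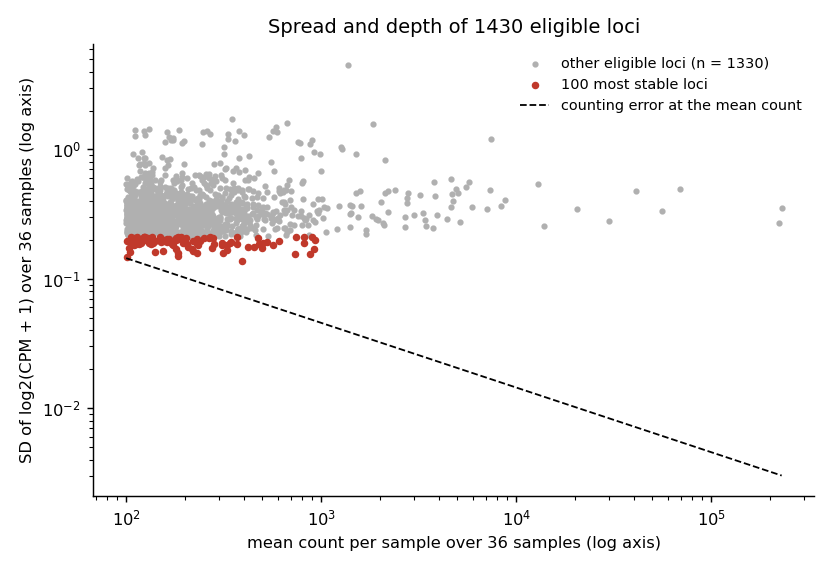
Each point is one of the 1430 eligible loci, placed by its mean count per sample (horizontal, log axis) and by the SD of its log2(CPM + 1) over 36 samples (vertical, log axis). The 100 most stable loci (red) reach an SD of at most 0.212 and a mean count of at most 926, and the dashed line is the SD that counting error alone would give at each mean count.

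The lowest spread belonged to ENSOARG00000006063 (chr25:26419212-26445637), with a mean of 390 counts per sample. Its level was lowest in GM1 at 221 CPM and highest in LL4 at 315 CPM, with a median of 270.4 CPM over the 36 samples. By muscle it ran from 245 ± 24.5 CPM in GM to 283 ± 16.0 CPM in GB (SD, n = 4), and the samples of these muscles overlapped. Muscles took 27.7% of its variance and lambs 15.3%.

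The second, ENSOARG00000020401 (chr1:16484870-16610908), was expressed lower, at 70.1 CPM at the median, and ran from 55.9 CPM in LL2 to 84.9 CPM in GB2. Its SD of 0.147 equalled the SD of 0.147 that counting error alone would give for its counts, which averaged 101.2 per sample. On the scale of the rule, no variation beyond counting could be seen in it at this depth. Its SD was 0.178 when scaled by the trimmed mean of M-values and 0.206 when scaled by the sum of all counts. The third, ENSOARG00000014077 (chr16:62643321-62697211), ran from 100.7 CPM in SM3 to 162 CPM in GM2, and counting error made up 54.2% of its variance.

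The loci that followed had deeper counts. The locus that joins ENSOARG00000016562 and ENSOARG00000023512 (chr13:56774751-56841873) averaged 735 counts and ran from 361 CPM in LL2 to 608 CPM in PM1. ENSOARG00000020529 (chr7:34625303-34858888) averaged 878 counts and ran from 487 CPM in SM1 to 720.4 CPM in AD2. Both were measured precisely, since counting error was 12.3% and 10.3% of their variance, so most of their remaining spread lay between samples.

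By muscle, ENSOARG00000020529 averaged 681 ± 38.2 CPM in LL and 509 ± 18.0 CPM in SM (SD, n = 4), and no LL sample overlapped an SM sample. Muscle accounted for 57.0% of its variance, on an average of 22.9% that 9 muscles of 4 samples would give with no muscle effect. It was not called in a joint test of the 9 muscles (adjusted p of 0.0817, edgeR) or between any pair.

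The list covered a narrow range of levels. The highest mean level, 633.4 CPM, was that of the locus that joins ENSOARG00000011109, ENSOARG00000011263 and ENSOARG00000021759 (chr5:17593659-17687426), which ran from 512 CPM in SS1 to 829 CPM in SM4. It was nearly equalled by ENSOARG00000004925 (chr25:24397587-24506949), with a mean of 632.6 CPM and a range from 441 CPM in SM1 to 826 CPM in ST3. Next was ENSOARG00000014369 (chr13:33646361-33869647), from 411 CPM in SM1 to 843 CPM in PM1. Counting error was 5.70% to 8.31% of the variance of these well-counted loci.

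The lowest mean level was that of ENSOARG00000002727 (chr11:19724531-19755341), which ran from 50.3 CPM in PM3 to 97.4 CPM in GM4 with a mean of 68.9 CPM. The locus that joins ENSOARG00000019226 and ENSOARG00000019230 (chr7:20635446-20649442) was the third lowest and ran from 54.7 CPM in SS3 to 88.7 CPM in PM1. Counting error was 56.7% and 71.7% of the variance of these loci.

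The boundary of the list fell in a dense part of the distribution. The last loci inside were ENSOARG00000004778, ENSOARG00000018666 and ENSOARG00000014368, with SDs of 0.211, 0.212 and 0.212. The first loci outside were ENSOARG00000007740, ENSOARG00000019516 and ENSOARG00000013778, with SDs of 0.212, 0.213 and 0.213. The place of the boundary has no meaning of its own.

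Counting error was also weighed against the choice. When the counting variance was subtracted, 80 of the listed loci stayed in the list. Whether counting error set the order within the list was not tested. Counting error was a median of 31.6% of a listed locus's variance, against 11.9% over all eligible loci. It made up 50% or more of the variance in 13 listed loci and in no other eligible locus. The choice of low SDs raises these shares, so nothing is read from them. The SD from counting error itself had a median of 0.109 in the list and 0.114 over all eligible loci. The ratio of variance to mean count, which is 1 under counting error alone, had a median of 3.21 in the list and 9.27 over all eligible loci. This ratio falls with the SD, so it restates the choice as well. Listed loci were not simply the most deeply counted ones, as their median mean count was 184, against 179.5 for all eligible loci, and none exceeded 926 although the deepest eligible locus averaged 229954.5 counts.

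The list also depended on how libraries were scaled. With the trimmed mean of M-values (TMM) computed on Ensembl loci, 46 of the 100 loci stayed among the 100 most stable, and with the sum of all counts 53 stayed. Only 23 of the 100 were kept under both. ENSOARG00000001738 (chr7:83235860-83315989), the sixth by the rule with an SD of 0.158, became the first under TMM with an SD of 0.106, close to its counting error of 0.097. Over 25 other settings of scaling, filter, measure of spread and samples, a listed locus stayed in the list in a median of 20, and 5 loci stayed in all of them. These were ENSOARG00000006063, ENSOARG00000001738, ENSOARG00000002835 (chr10:74343706-74417979), ENSOARG00000002458 (chr19:12608770-12622109) and ENSOARG00000007288 (chr5:37877047-37892060).

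The last of these 5 had the deepest counts. ENSOARG00000007288 ran from 301 CPM in ST1 to 533 CPM in AD4, with a mean of 563 counts per sample. ENSOARG00000002458 ran from 155 CPM in LL2 to 263 CPM in AD4, and ENSOARG00000002835 from 113 CPM in LL2 to 185 CPM in PM4. ENSOARG00000001738 was lowest in LL2 as well, so 3 of these 5 loci had their lowest sample in LL2.

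Stability was next read in samples that the choice had not used. The rule was applied to the 27 samples of 3 lambs, and the spread of the 100 loci so chosen was measured in the 9 muscles of the lamb left out, each lamb in turn. For animals 1 to 4 the median SD in the lamb left out was 0.221, 0.215, 0.192 and 0.186, and the median of all eligible loci in the same 9 samples was 0.302, 0.309, 0.267 and 0.27. In each of the 4 lambs the chosen loci thus varied less across muscles, at the median, than eligible loci did, and 87, 87, 84 and 91 of 100 lay below the eligible median.

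**Figure D2:**
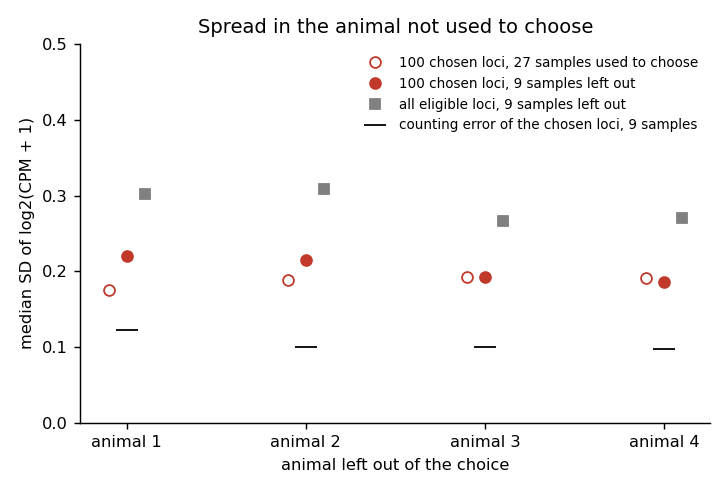
For each animal left out (horizontal), the vertical axis gives the median SD of log2(CPM + 1) of the 100 loci chosen from the other 27 samples, in those samples (open circles) and in the 9 left out (filled circles), with all eligible loci in the 9 left out (squares) and the counting error of the chosen loci (dashes). The filled circles lie at 0.186 to 0.221 and the squares at 0.267 to 0.309.

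The order within the chosen loci was less steady. The median chosen locus stood at the 17.7, 19.4, 21.4 and 15.5 percentile of the eligible loci in the lamb left out, and 23, 23, 16 and 32 of the 100 were also among its own 100 lowest. Their spread rose from the 27 samples to the 9 left out by the most for animal 1, from 0.175 to 0.221, the lamb with the fewest counts, whose chosen loci had a counting error of 0.123 against 0.0978 to 0.101 in the other lambs. Whether depth played a part was not tested. Between 69 and 76 of the 100 original loci were chosen again when 1 lamb was left out, and 44 were chosen in all 4 rounds.

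Leaving out a muscle gave a similar account. When the loci were chosen from 8 muscles, their mean in the muscle left out differed from the mean of the others by a median of 0.081 log2 units in GM to 0.136 in SM, against 0.127 to 0.193 for all eligible loci over the 9 muscles. In SS, 81 of 100 chosen loci were lower than in the other muscles, with a median difference of -0.12, and so were 70.2% of all eligible loci, with a median of -0.10. In GB 29 of 100 chosen loci were lower, and 24.5% of all eligible loci. The directions in these muscles were thus shared with the eligible loci as a whole. A difference over 0.5 was seen in 2 chosen loci for SS, 1 for SM and none for the other 7 muscles, against 3.71% to 10.2% of eligible loci.

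The summed level of the 100 loci moved little, which largely restates the choice and was not tested. Together they took 1.65% to 2.02% of the Ensembl counts, or 16484 CPM in LL2 to 20190.5 CPM in AD4, with a median of 18743 CPM. By muscle the sum was highest in GB at 19190.4 ± 347 CPM and lowest in SS at 17853 ± 610 CPM (SD, n = 4). No SS sample reached a GB sample, but these muscles were picked as the extremes. Of all eligible loci, 70.2% were lower in SS than in the other muscles, and 24.5% were lower in GB. RF was the tightest muscle at 18509 ± 127 CPM, and SM and LL the widest at 18509 ± 1343 CPM and 18467 ± 1335 CPM.

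**Figure D3:**
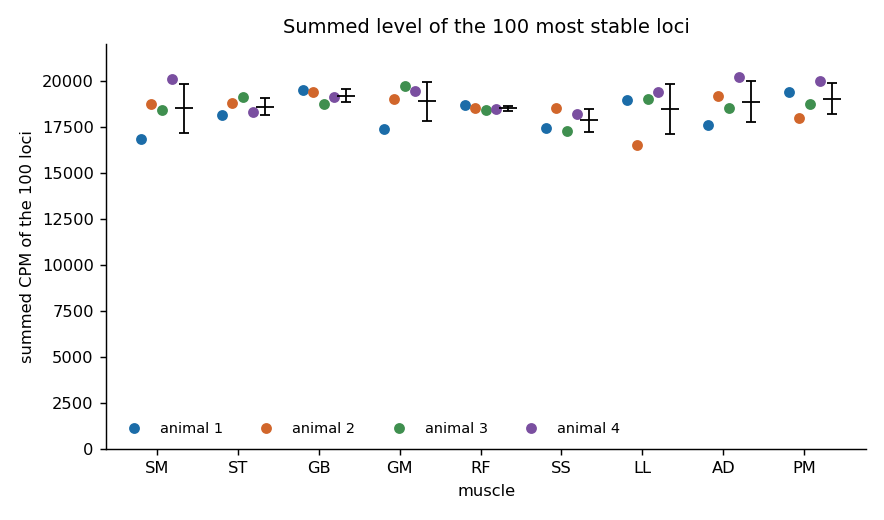
Points are the summed CPM of the 100 most stable loci (vertical) in each sample, by muscle (horizontal) and animal (colour), and the bars give the mean and SD of the 4 animals. The sums run from 16484 CPM in LL2 to 20190.5 CPM in AD4, and LL2 lies below the other 3 LL samples.

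Single samples held the extremes of many listed loci. LL2 was the lowest of the 36 samples for 20 of the 100 loci, SM1 for 14 and SM2 for 10, and GB1 was the highest for 11 and PM1 for 10. Of the other eligible loci, LL2 was the lowest sample for 16.8%, SM1 for 16.4% and SM2 for 3.16%, and GB1 was the highest for 8.95% and PM1 for 6.02%. The median listed locus lay 0.22 log2 units below its own mean in LL2, and the median of the other 1330 eligible loci lay 0.32 below, so that LL2 was low for both. Without LL2, 86 of the 100 loci were chosen again.

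By muscle means, SS was the lowest muscle for 27 listed loci, SM for 20, ST for 17 and LL for 14, and GB was the highest for 23, SM for 19 and PM for 13. The other eligible loci had SS lowest in 23.5%, ST in 21.4% and SM in 9.32%, and GB highest in 24.1%. Among lambs, animal 4 was the highest for 47 listed loci and animal 1 the lowest for 36. For the other eligible loci those shares were 30.2% and 44.1%.

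Muscle took a share of the variance of listed loci that ran from 11.4% to 64.1%, with a median of 34.8%, close to the median of 36.6% over all eligible loci. Lamb took a median of 12.6% (16.3% over all eligible loci), on an average of 8.57% with no lamb effect, and the rest a median of 50.6% (41.8%). At the median, the muscle share in the list was close to that of eligible loci, the lamb share smaller and the rest larger. These are shares of the same variance that the rule kept low. The differences were not tested, and nothing is read from them. The largest muscle share of any eligible locus was 92.1%, that of MYL3, the light chain of slow fibre myosin.

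**Figure D4:**
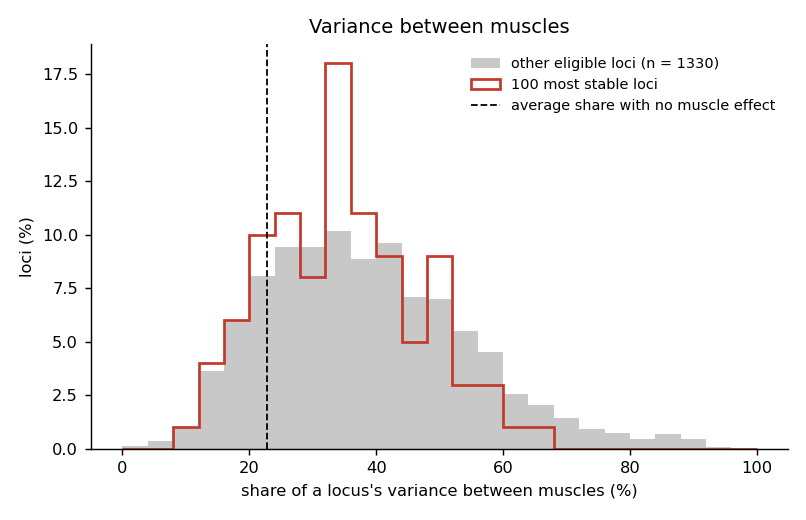
The horizontal axis is the share of a locus's variance in log2(CPM + 1) that lies between the 9 muscles, and the vertical axis the percentage of loci in each bin, for the 100 most stable loci (red line) and the other 1330 eligible loci (grey bars). The listed loci run from 11.4% to 64.1%, and the dashed line marks the 22.9% that would be the average with no muscle effect.

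The largest muscle share was that of ENSOARG00000011540 (chr5:4381355-4383809). Its 4 SM samples were at 192, 183, 186 and 173 CPM, and its 4 LL samples at 139, 128, 131 and 126 CPM. SM lay wholly above LL. The muscles nearest to SM by mean were ST and AD, at 168 ± 16.7 and 168 ± 14.1 CPM (SD, n = 4). Both had samples of up to 180 CPM and so overlapped SM. The locus that joins ENSOARG00000013479 and ENSOARG00000013586 (chrX:54166962-54203733) had a muscle share of 56.1%, with AD highest at 140.0 ± 10.4 CPM and LL lowest at 98.8 ± 6.90 CPM.

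At the other end was the locus that joins ENSOARG00000005012, ENSOARG00000005269 and ENSOARG00000022112 (chr11:42608846-42642745), with a muscle share of 11.4%. It ran from 72.8 CPM in LL2 to 120 CPM in PM1 and its highest muscle, SM at 101.1 ± 11.5 CPM, overlapped its lowest, LL at 86.3 ± 13.5 CPM. ENSOARG00000000774 (chr22:38197882-38229572) had the next lowest share, with GB at 175 ± 22.2 CPM and AD at 151 ± 9.81 CPM. For these loci the muscles were not separated, and ENSOARG00000012664 (chr17:62447046-62485399), at 12.2%, had more of its variance between lambs, 38.4%.

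The highest and the lowest muscle of a listed locus differed by a median of 1.28-fold (1.14 to 1.52), against 1.52-fold over all eligible loci. Their 4 samples did not overlap in 55 of the 100 loci, and in 57.3% of all eligible loci. The count in the list lies near this background and is no result about the listed loci.

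Muscles and lambs were compared across all 12461 loci with enough counts, in a model with both as factors (edgeR's quasi-likelihood test, Benjamini-Hochberg adjustment, FDR of at most 0.01). In the joint test of muscles 1 listed locus was called, against 8.94% of all loci tested, and in the joint test of lambs 2 were called, against 17%. Of the eligible loci, which have more counts than most, 21.7% and 25.5% were called. At an unadjusted p under 0.05 these were 23 and 24 listed loci, against 33.3% and 41.1% of all loci. The rule used the same samples, so nothing is read from these counts.

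In the 36 pairs of muscles, 4 listed loci were called in 1 pair each, against 13% of all loci and 28.7% of eligible loci called in any pair. Here too nothing is read from the count. With the fold limit of the study, an absolute log2 fold change (log2FC) above 1, the share of all loci was 9.19%, and no listed locus was called by edgeR's quasi-likelihood test, its likelihood ratio test or DESeq2. The largest absolute log2FC of a listed locus in any pair was 0.71, whatever its p, so the unadjusted count past the fold limit was also 0. Of all eligible loci, 86.3% did not pass that limit in any pair. The rule kept loci of low spread, so nothing is read from the 0. The fit was scaled by TMM on all tested loci, which moved pairs of muscles by -0.25 to 0.15 log2 units relative to the scale of the rule and by more than 0.1 in 18 of the 36 pairs. Hence the median listed locus had a log2FC of -0.18 between GM and ST in the fit, where it differed by 0.03 on the scale of the rule.

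Both loci called between LL and SS were higher in LL. ENSOARG00000009840 (chr11:38937322-38964077) was at 136, 112, 144 and 137 CPM in LL and at 87.5, 98.7, 86.5 and 75.4 CPM in SS. All LL samples lay above all SS samples, and LL was higher within each of the 4 lambs. The log2FC was 0.71 with an adjusted p of 0.00253 (edgeR), and the within-lamb difference on the scale of the rule was 0.60 ± 0.147 (SE, n = 4).

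ENSOARG00000009888 (chr25:34865773-34931939) was at 163, 141, 153 and 144 CPM in LL and at 115, 117, 94.1 and 93.4 CPM in SS. The groups again did not overlap, and LL was the highest and SS the lowest of the 9 muscles. The log2FC was 0.63 with an adjusted p of 0.00455 (edgeR), and the within-lamb difference was 0.52 ± 0.0934 (SE, n = 4). Without LL2 the adjusted p was 0.0116, above the threshold of 0.01.

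ENSOARG00000012141 (chr20:39431168-39777005) was at 115, 135, 132 and 120.0 CPM in RF and at 71.8, 110, 90.3 and 97.4 CPM in SM. RF lay above SM in every lamb and the groups did not overlap. The log2FC was 0.54 with an adjusted p of 0.00478 (edgeR), and the within-lamb difference was 0.45 ± 0.0932 (SE, n = 4).

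ENSOARG00000015653 (chr24:19817448-20025969) was at 84.9, 77.0, 72.1 and 75.1 CPM in GM and at 100.3, 109.8, 91.9 and 96.7 CPM in ST. GM lay below ST in every lamb, with no overlap. The log2FC was -0.58 with an adjusted p of 0.00441 (edgeR), and the within-lamb difference was -0.36 ± 0.0550 (SE, n = 4); the shift in scale between these muscles was -0.21. It was also the 1 listed locus called in the joint test of muscles (adjusted p of 0.00559, edgeR). Each of these 4 loci lost its call when some single lamb was left out, and ENSOARG00000012141 when any lamb was.

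**Figure D5:**
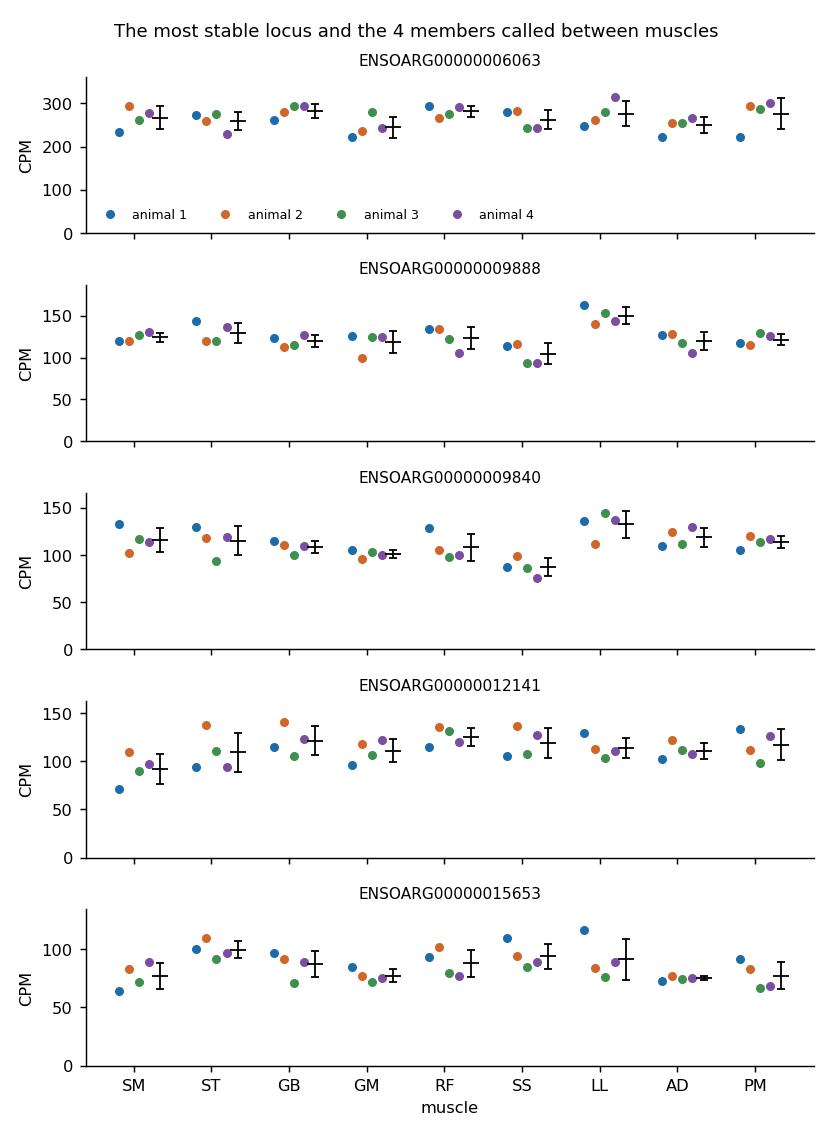
Each panel shows 1 locus, with the CPM of every sample (vertical, from 0) by muscle (horizontal) and animal (colour), and the mean and SD of the 4 animals as bars. ENSOARG00000006063 stays between 221 and 315 CPM, and the other 4 panels are the loci called between a pair of muscles.

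The 2 loci called between lambs differed in which lamb stood out. ENSOARG00000014649 (chr11:47787260-47856502) was at 120 to 190.5 CPM in the 9 muscles of animal 1 (median 162 CPM), at 124 to 171 CPM in animal 2 (median 131 CPM), at 111 to 154 CPM in animal 3 (median 139.6 CPM) and at 100.8 to 155 CPM in animal 4 (median 129 CPM). Animal 1 was the highest at the median, and all 4 ranges overlapped. The adjusted p was 0.00181 (edgeR), and the call was lost without animal 1 (0.422), without animal 4 (0.0359) and without the filter on low counts (0.0774).

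The locus that joins ENSOARG00000012156, ENSOARG00000012171 and ENSOARG00000012193 (chr2:53069356-53101663) was at 249 to 373 CPM in animal 1 (median 337 CPM), at 273 to 335 CPM in animal 2 (median 311 CPM), at 299 to 434 CPM in animal 3 (median 348 CPM) and at 331 to 417 CPM in animal 4 (median 382 CPM). Animal 4 was the highest and animal 2 the lowest at the median, again with overlapping ranges. The adjusted p was 0.00855 (edgeR), and the call was lost without animal 2 (0.558), animal 3 (0.0274) or animal 4 (0.0411) and without the filter (0.0759). Its lamb share of 45.0% was the largest in the list.

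Position and structure were not used by the rule. The listed loci lay on 26 chromosomes, with 11 of the 151 eligible loci of chromosome 1, 7 of 45 on chromosome 14, 6 of 41 on chromosome 19, 3 of 40 on chromosome X and none of 16 on chromosome 26. Their median span was 46933 bases, against 50013.5 for all eligible loci, and 12% joined several Ensembl genes, against 7.48%. Another locus was listed at the same coordinates for 40 of the 100, and for 39.0% of eligible loci.

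The nearest eligible neighbour of a listed locus lay at a median distance of 176214 bases and had a median SD of 0.30, near the 0.32 of all eligible loci. For the 100 listed loci, the neighbour was itself listed in 9 and lay below the eligible median in 62. Of all 1430 eligible loci, 100 are listed, and a listed neighbour lies below that median by the choice. Some loci were the neighbour of several listed loci. Nothing is read from these counts.

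Loci without an Ensembl gene, which took no part in the choice, were listed within the coordinates of 13 of the 100 loci, and of 15.4% of eligible loci. Of these 91, the 40 with a mean of at least 10 counts belonged to 6 listed loci and had the same coordinates as them. Their SD ran from 0.43 to 0.95 (median 0.67), above that of their listed locus in 40 of 40. Counting error alone gave them at least 0.217, where no listed locus exceeds 0.212. The choice and the depth thus fixed this outcome, and nothing is read from it. They had far fewer counts, a median of 15.5 per sample, and their SD was 1.52 times their counting error at the median, against 1.62 times for all 1639 loci without an Ensembl gene at that count. The most counted of them, at 71.8 counts per sample, lay with ENSOARG00000014369 and had an SD of 0.75 where counting error gave 0.22.

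Listed loci did not move as 1 block. Over the 4950 pairs of listed loci the correlation of log2(CPM + 1) across the 36 samples had a median of 0.131 and ran from -0.768 to 0.779, with 266 pairs above 0.5. All pairs share the same libraries, lambs and scaling, so these are descriptions. The first principal component took 19.6% of their variance, against 18.8% over all eligible loci.

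Coordinates placed 28 genes named by the study at 40 loci, of which 26 were not eligible and so could not be listed. None of the 14 eligible ones was listed, and they stood at places 164 to 1429 in the order of SD. Most of these genes were named because they differed among these same muscles, so their place is a contrast and no independent evidence. TNNT1 stood at place 1400 of 1430 with an SD of 1.14, TNNC1, the slow troponin C, at place 1403 with 1.17, and TNNI1, the slow troponin I, at place 1408 with 1.24. TPM3, a tropomyosin of slow fibres, stood at place 1410 and MYL3 at place 1429 with an SD of 1.73. SMYD2, a lysine methyltransferase, had an SD of 0.44 at place 1162, and 87.1% of its variance lay between muscles. The lowest spread was that of ENSOARG00000009931, at place 164 with an SD of 0.23, which is 1 of 2 loci at the position given for MYL6, a non-muscle and smooth muscle myosin light chain, so the name was not assigned.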

How the data were processed

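RNA-Seq of 36 samples (9 muscles of each of 4 lambs) was used. The authors aligned 100-base paired reads to Oar_v3.1 with TopHat2 2.0.13, assembled them with Cufflinks 2.2.1 and the Ensembl annotation, and counted reads per locus with HTSeq. The deposited values are whole-number counts without normalization. The tables hold 31530 entries for 31136 loci, and each locus was used once. Lanes of the samples were not given in the labels.

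CPM used the summed counts of Ensembl loci, with a pseudocount of 1 on the log2 scale. Members were the 100 lowest SDs among loci with a mean of at least 100 counts. Counting SD was computed from Poisson error, and such intervals cover counting error only, as reads carried no molecular identifiers. Variance was divided by sums of squares among muscles, lambs and the rest. The members and lists were chosen with earlier results of these data known.

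Tests used edgeR 4.0.16 in R 4.3.3 (quasi-likelihood, filterByExpr by muscle, TMM, muscle and animal in 1 fit of all samples), with Benjamini-Hochberg adjustment over 12461 loci, and DESeq2 1.42.0 as an alternative. Across loci, the common coefficient of biological variation came to 0.195. Samples were paired by the number in each label, since each lamb gave all muscles. That number was taken as the animal, which the labels do not state. Deviations from the muscle mean correlated by 0.236 on average over 144 pairs of samples of the same lamb (135 above 0.1). For different lambs and muscles the average was -0.0777. Deviations within a muscle cancel over its 4 lambs, so the second value follows from the first and is no separate baseline. The tests were run on simulated data first.

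Loci were named by rule: the 15 lowest SDs, those beside the boundary, the highest and lowest levels, the largest and smallest muscle shares, and those with the smallest p in the joint muscle test. The rule asked for gene symbols, which the files do not give, so that condition was dropped, and not all named loci are printed. Of 37 such loci, 2 that were called (ENSOARG00000012141 and ENSOARG00000014649) were added after their values were seen, as were the 2 other loci stable under every setting. Symbols of study genes come from coordinates in its tables. Study genes with none there were not analysed here, nor were some that have them, such as HOXD8 and MYH7B. Reference genes, gene families, cell type markers and promoters were not analysed here.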

Additional observations from a re-analysis of the deposited data

Results flagged for a closer look

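Dixon's test was applied to 83 groups of 4 samples, of which chance flags about 1 in 20, and 2 had a sample far from the others. The summed level of the 100 loci in LL2 was 16484 CPM, and the other LL samples lay at 18975 to 19392 CPM, a gap of 0.857 of the range. ENSOARG00000019516, which lay just outside the list, was at 148 CPM in SS4 and at 118 to 121 CPM in the other SS samples, a gap of 0.899 of the range.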

How the results depend on the processing

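Of the 100 loci, 46 were kept with TMM on Ensembl loci, 53 with the sum of all counts, 47 with median ratio size factors, 46 with a mean count of at least 200 and 53 with the median absolute deviation. With the counting variance subtracted, 80 were kept. Leaving out a lamb kept 69 to 76, leaving out LL2 86, and leaving out a muscle, both chosen after the data were seen, 77 to 92. The median over lambs of the median SD in the lamb left out was 0.204, and 0.182 with TMM.

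The joint muscle test called 1114 loci, of which 1 was listed. This became 2382 and 7 at an FDR of 0.05, 2119 and 3 with the likelihood ratio test, 2384 and 0 without the filter, and 452 to 675 and 0 without a lamb (1354 and 1 without LL2). DESeq2 called 1630 loci, 9 of them listed. The joint lamb test called 2122 loci, 2 of them listed. This became 3573 and 10 at an FDR of 0.05, and 1157 to 1705 and 0 to 1 without a lamb (2212 and 2 without LL2). Without the filter it was 2975 and 0.

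Over the 36 pairs 3360 calls passed both the FDR and the fold limit, and 0 of these were of listed loci. Without the fold limit, 4 calls of listed loci were made. The count with the fold limit and the count of listed loci without it became 6980 and 37 at an FDR of 0.05. They were 5292 and 7 with the likelihood ratio test and 9014 and 2 without the filter. Without a lamb they were 1692 to 2511 and 0 to 5 (3882 and 4 without LL2). DESeq2 made 3616 calls past the fold limit and, without that limit, 27 calls of listed loci. Calls of listed loci past the fold limit stayed at 0 under all 11 alternatives. The rule kept loci of low spread, far from that limit, so nothing is read from this.

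Without the replicate block for lamb, the joint test called 320 loci and 0 listed ones. The pairs gave 1234 calls past the fold limit and, without that limit, 1 call of a listed locus. Only ENSOARG00000009840 then kept its call (adjusted p of 0.00929, edgeR). The causes were not tested, except that leaving out a lamb leaves fewer samples. Alternatives for reference genes, gene families and promoter letters were not run, as the loci have no symbols. Depth limits the loci near 100 counts, where counting error alone gives an SD of about 0.147.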
